A study of Rattus norvegicus with 23 samples.

Results

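Alpha-naphthylisothiocyanate (ANIT) is a reference toxicant of the intrahepatic bile ducts, and its effect on liver transcripts was measured in 3 rats given ANIT at 100 mg/kg and in 3 rats given its corn oil vehicle at 5 ml/kg. These 6 arrays, out of 23 in the series, were chosen by the compound, dose and volume in their titles. All were young adult male Sprague Dawley rats dosed by oral gavage for 5 days, fasted overnight and sampled a day after the last dose. Total RNA from the left lateral lobe was copied into cDNA with an oligo(dT) primer and then into biotin-labelled cRNA. The cRNA of each liver was hybridised to its own Affymetrix Rat Genome 230 2.0 array. No allele or surgery was involved, and the ANIT rats received corn oil too, as the vehicle of their dose. The titles of the corn oil samples start with 3 different animal numbers but all end with the same one, and the starting numbers were taken as the animals.

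ANIT is conjugated with glutathione in hepatocytes, exported into bile and set free again there, so that the cells lining the ducts meet it at high concentration. Injured ducts leak, bile flow falls, and surviving duct cells divide. Bile acids retained in hepatocytes are known to act through the receptor FXR to lower their own synthesis and uptake, and hepatocytes facing cholestasis are known to place export pumps on the membrane that faces the blood.

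All values below are log2 robust multichip average (RMA) values of a probe set, the unit in which a gene is read on this array, and a change is the ANIT mean minus the corn oil mean with its standard error. Each of 14217 genes stands by 1 probe set, and levels of different probe sets are not comparable. A gene is said to have risen or fallen, or is called, when its adjusted p from limma was under 0.05 and its change was over 1.5-fold. Of 31042 probe sets 1671 passed (5.38%), 816 higher and 855 lower with ANIT. Among genes, 546 rose (3.84%) and 480 fell (3.38%), and the median change of all genes was -0.02. In all 1026 called genes the groups did not overlap, so that lack of overlap adds nothing to a call. Every gene list was drawn up with earlier results of these data known, so list counts and medians describe the chosen genes. They are to be read beside the shares of all genes that rose and fell. List counts of 5 or fewer shifted by up to 3 members when 1 liver was left out. A total of 226 genes rose and 141 fell by more than 2-fold, while 10 rose and 5 fell by more than 8-fold.

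The groups stood far apart. Over all probe sets, arrays correlated at 0.987 to 0.993 among ANIT livers, at 0.994 to 0.995 among corn oil livers and at 0.975 to 0.981 between the groups, as a description across probe sets that are not independent. The first principal component held 60% of the variance, with scores of 30.08, 27.23 and 31.91 for ANIT livers and -29.01, -29.22 and -30.99 for corn oil livers. The second held 18.3% and set ANIT liver 3 (31.80) apart from ANIT livers 1 and 2 (-18.58 and -14.98). ANIT livers varied more among themselves, with a median SD over genes of 0.143 against 0.0848 in corn oil livers, and the ANIT SD was the larger one for 10034 genes against 4183 genes with the larger SD in corn oil.

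The brightest probe sets read low on 3 arrays, which were 2 of the ANIT group and 1 of the corn oil group. The highest value on ANIT arrays 1 and 2 was 14.58 and 14.97 and on corn oil array 2 it was 14.57, against 15.95 on ANIT array 3 and 15.97 and 15.98 on corn oil arrays 1 and 3. For the 28 probe sets that were brightest in the median of the other 17 samples of the series, the values on ANIT arrays 1 and 2 lay at -1.35 and -1.26 from that median and those on corn oil array 2 at -1.33, while the other arrays lay within 0.03 of it. Values above 14 occurred for 118 genes, and for some of them the change after all values were capped at 14 is given too. Hepatocyte products such as albumin are among them: Alb read 14.58, 14.97 and 15.95 in ANIT livers and 15.97, 14.57 and 15.98 in corn oil livers, so its change of -0.34 ± 0.45 (adjusted p = 0.738) has no usable size. In the capped fit Cd163, Sctr, Lrat, Igfbp3, Cux2 and Ifgga2l1, all named below as called, kept their change but lost their call.

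**Figure D1:**
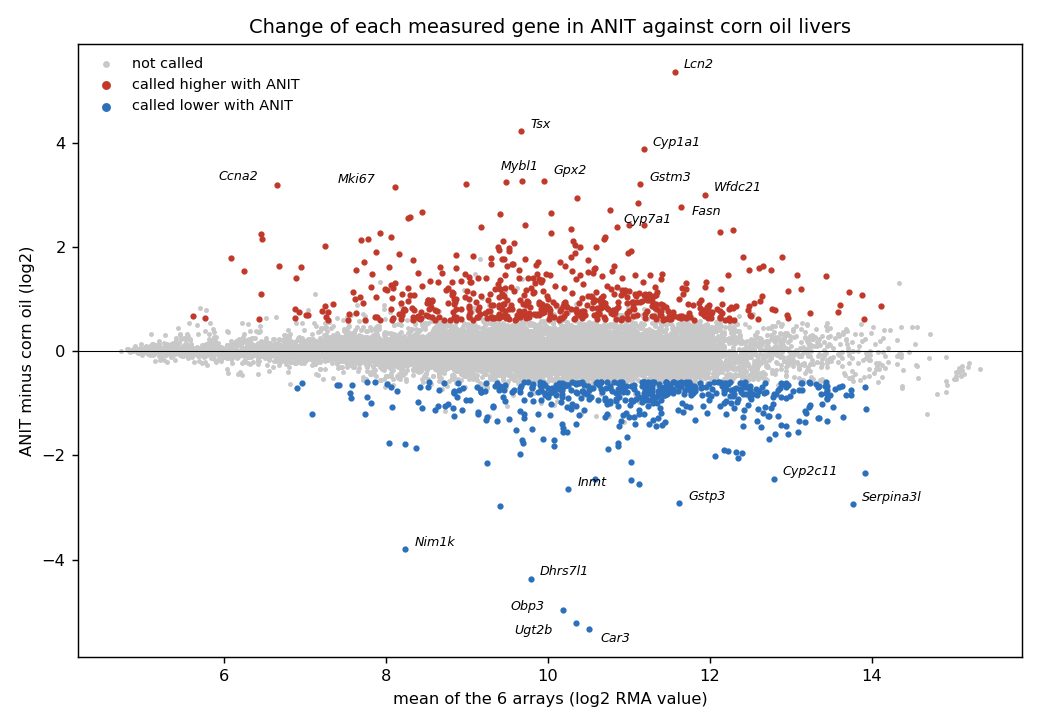
Change of each of 14217 genes (log2, ANIT minus corn oil, vertical axis) against the mean of its probe set over the 6 arrays (log2 RMA value, horizontal axis). Red points were called higher with ANIT, blue points lower, grey points were not called, and Lcn2 (5.36) and Car3 (-5.33) are the extremes.

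Lcn2, which encodes the siderophore-binding protein lipocalin 2 of injured epithelium and the acute phase, rose more than any other gene. It read 13.75, 13.38 and 15.61 in ANIT livers, against 8.90, 8.98 and 8.78 in corn oil livers, a change of 5.36 ± 0.50 (adjusted p = 0.00114). All ANIT livers lay far above all corn oil livers, with ANIT liver 3 the highest. The change was 4.82 with values capped at 14 and 4.68 without ANIT liver 3. Tsx, a gene first known from testis, read 12.16, 12.04 and 11.14 in ANIT livers, against 7.59, 7.49 and 7.61 in corn oil livers (4.22 ± 0.24, adjusted p = 0.000169). Gucy2c, the guanylate cyclase receptor of the intestinal peptide guanylin, read 11.35, 11.24 and 10.70 with ANIT, against 7.79, 8.02 and 7.76 with corn oil (3.24 ± 0.17, adjusted p = 0.000137). In both genes ANIT liver 3 was the lowest of its group and still lay far above every corn oil liver. The other genes among the 12 largest rises were Cyp1a1, Gpx2, Mybl1, Cdkn3, Gstm3, Ccna2, Mki67, Wfdc21 and Acat2, with changes of 2.94 to 3.87.

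Car3, a carbonic anhydrase abundant in the liver of male rats, fell most. Its values were 7.65, 7.72 and 8.17 in ANIT livers, against 12.97, 13.46 and 13.10 in corn oil livers, and the change was -5.33 ± 0.17 or 40.2-fold (adjusted p = 2.59e-05). Its other probe set was called lower too, at -2.60. Ugt2b, a UDP-glucuronosyltransferase, read 7.32, 8.12 and 7.77 with ANIT, against 13.59, 11.59 and 13.65 with corn oil (-5.21 ± 0.52, adjusted p = 0.0014), and its other probe set, at -3.35, was not called. Corn oil liver 2 was the low one of its group for Ugt2b and still lay above every ANIT liver. Dhrs7l1, named as a dehydrogenase of the short-chain family, read 7.14, 8.06 and 7.61 with ANIT, against 12.60, 11.58 and 11.75 with corn oil (-4.37 ± 0.30, adjusted p = 0.000413). The remaining large falls were those of Obp3, Nim1k, LOC102554026, Serpina3l, Gstp3, Inmt, Ust5r, Nrep and Abcg5, from -4.96 to -2.45.

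The first question for a cholestatic toxicant is what the bile acid genes did. Of 17 genes of bile acid synthesis and conjugation 1 rose and 2 fell, with a median change of -0.29. Cyp7a1, whose product sets the pace of bile acid synthesis, rose and read 12.48, 13.16 and 11.98 in ANIT livers, against 9.62, 8.71 and 10.72 in corn oil livers, a change of 2.85 ± 0.49 or 7.23-fold (adjusted p = 0.0114). The corn oil livers were the more scattered group (SD 1.01, against 0.60 with ANIT), the groups did not overlap, and without corn oil liver 1 the gene was no longer called. Cyp8b1, the 12-alpha-hydroxylase that sets the cholic acid share, fell, with 12.91, 12.65 and 12.50 in ANIT livers, against 14.21, 13.47 and 13.61 in corn oil livers (-1.08 ± 0.20, adjusted p = 0.0144). Amacr, a racemase of side chain oxidation, read 11.79, 11.90 and 12.02 with ANIT, against 13.34, 13.10 and 13.64 with corn oil (-1.46 ± 0.14, adjusted p = 0.00119). The first enzyme of the pathway was thus higher in every ANIT liver while the 12-alpha-hydroxylase was lower in every ANIT liver. Changes of Cyp27a1, which starts the alternative pathway, and of Baat, which conjugates bile acids to amino acids, were -0.30 and -0.46, short of a call.

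Carriers that take bile acids and other anions up from blood fell in part. Of 11 basolateral uptake carriers 0 rose and 4 fell, with a median change of -0.55, beside 3.38% of all genes falling. Slc10a1, the sodium-dependent bile acid carrier NTCP, read 12.52, 11.67 and 13.09 in ANIT livers, against 13.76, 13.60 and 13.94 in corn oil livers (-1.34 ± 0.31, adjusted p = 0.0357). Every ANIT liver lay below every corn oil liver, but the call was lost when any corn oil liver or ANIT liver 1 was left out, with changes of -1.67 to -0.96 over the 6 omissions. Slc22a7, an organic anion carrier, kept its call whichever liver was left out, at -0.80 ± 0.08 (adjusted p = 0.00152), with 11.87, 11.71 and 11.76 in ANIT livers and 12.52, 12.56 and 12.66 in corn oil livers. Slco1a4 (-1.07) and Slc22a8 (-1.40) fell as well. Slco1a4 lost the call without any 1 of the corn oil livers, without ANIT liver 2 or without ANIT liver 3, and Slc22a8 lost it without corn oil liver 1 or corn oil liver 3. Without corn oil liver 1 or 3 the list kept 1 called member of 11.

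The export pumps did not move together. Of 10 canalicular export pumps 0 rose and 3 fell, with a median change of -0.13. Those that fell were Abcg5, Abcg8 and Abcb1a. The change of Abcb1a was -1.06 ± 0.22 (adjusted p = 0.0228), a call lost without any 1 of the corn oil livers or without ANIT liver 1. Abcb11, the canalicular bile salt export pump, read 12.76, 12.56 and 12.80 in ANIT livers, against 13.18, 13 and 13.33 in corn oil livers, and its change of -0.46 ± 0.11 was below the fold threshold (adjusted p = 0.0378). Abcc2, the canalicular pump for conjugates, read 12.08, 11.75 and 12.03 with ANIT, against 11.83, 11.89 and 12.09 with corn oil, with overlapping groups. Abcb4, the phospholipid flippase, had a change of 0.23 ± 0.10 (adjusted p = 0.222). The half-transporters that together export cholesterol and plant sterols into bile both fell. Abcg5 read 8.97, 9.40 and 9.69 in ANIT livers, against 11.62, 11.71 and 12.07 in corn oil livers (-2.45 ± 0.19, adjusted p = 0.000647). Abcg8 read 7.98, 7.87 and 7.82 with ANIT, against 9, 8.58 and 9.36 with corn oil (-1.09 ± 0.18, adjusted p = 0.00929). Neither pair of groups overlapped, as in every called gene. On the side facing the blood, Abcc3, an efflux pump for glucuronides and bile acids, rose: it read 12.72, 11.69 and 11.96 with ANIT, against 9.28, 8.88 and 10.11 with corn oil, a change of 2.70 ± 0.35 or 6.51-fold (adjusted p = 0.00364). Abcc4, its neighbour in function, read 9.32, 8.85 and 8.77 with ANIT, against 8.72, 8.05 and 8.75 with corn oil, and its change of 0.48 ± 0.22 was not called (adjusted p = 0.239). Abcc3 was 1 of 7 measured efflux pumps to rise, against 3.84% of all genes.

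**Figure D2:**
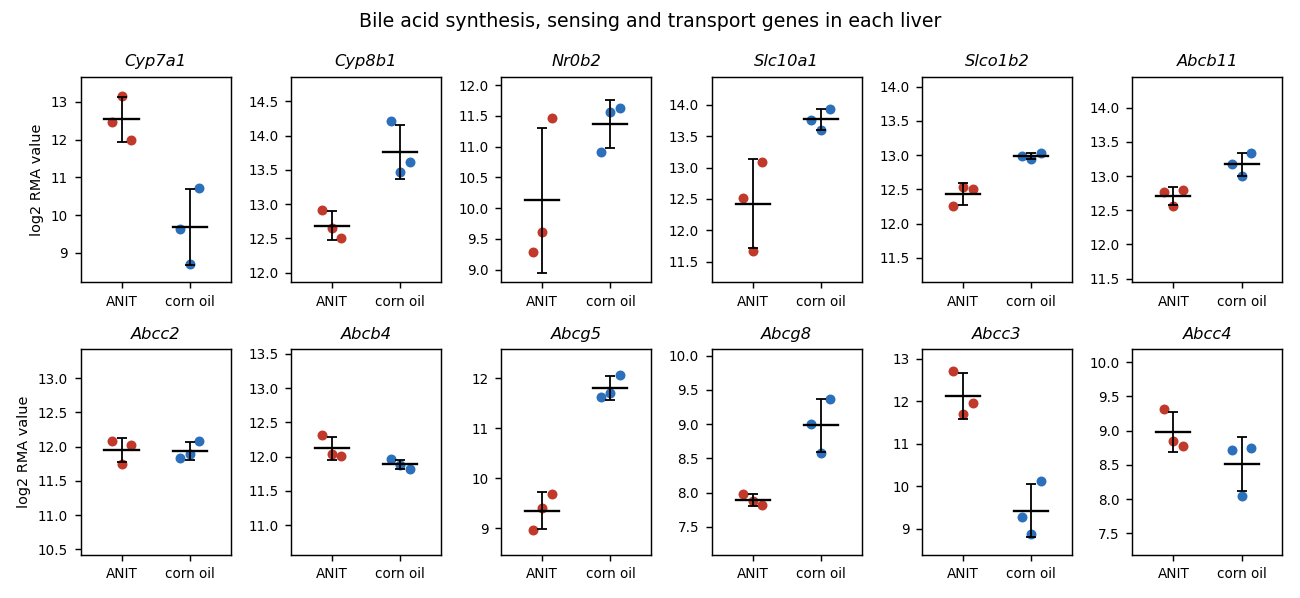
Log2 RMA values of 12 bile acid synthesis, sensing and transport genes, with a point for each liver, ANIT in red at the left and corn oil in blue at the right, a line at the mean and bars of 1 SD (n = 3 each). Cyp7a1 and Abcc3 lie higher in every ANIT liver, Cyp8b1, Slc10a1, Abcg5 and Abcg8 lower, and Abcc2 overlaps.

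Among 24 nuclear receptors and bile acid sensors 2 rose and 1 fell. Beside 3.84% of all genes rising and 3.38% falling, these counts say little about the class. Nr1h4, the bile acid receptor FXR, had a change of -0.44 ± 0.09 (adjusted p = 0.0191), below the fold threshold. Nr0b2, the repressor SHP that FXR induces, read 9.29, 9.61 and 11.47 in ANIT livers, against 10.92, 11.56 and 11.63 in corn oil livers. ANIT livers 1 and 2 were below every corn oil liver and ANIT liver 3 was among them, so that the change of -1.25 ± 0.52 was not called (adjusted p = 0.2) and was -1.92 and called without ANIT liver 3. Of 16 hepatocyte transcription factors 1 rose and 4 fell. Hnf4a overlapped between groups at -0.21 ± 0.12 (adjusted p = 0.374), and Cebpa fell by 0.59 (adjusted p = 0.0136) at 1 of its 5 probe sets, a call lost without corn oil liver 2, corn oil liver 3 or ANIT liver 2.

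Markers of the bile duct epithelium were counted next, since the labelled sample is whole liver tissue in which ducts are a small part. In such bulk samples the arrays cannot tell more cells of a type from more RNA per cell. By histology the paper describes hyperplasia and hypertrophy of duct epithelium in ANIT livers. Its part in the marker values was not tested. Of 23 measured duct markers 3 rose and 0 fell, with a median change of 0.18, and the mean level of the list was 8.97, 8.60 and 8.70 in ANIT livers, against 8.40, 8.34 and 8.35 in corn oil livers. Epcam, an adhesion protein of duct and progenitor cells, rose: it read 12.04, 11.72 and 11.57 with ANIT, against 9.51, 9.44 and 9.88 with corn oil (2.16 ± 0.16, 4.48-fold, adjusted p = 0.000465). Prom1 rose by 0.61, a call lost without corn oil liver 2 or 3 or ANIT liver 3, and Sctr, the secretin receptor, rose by 0.66, a call kept only when ANIT liver 3 was left out, so that the count fell to 1 marker without corn oil liver 2 or corn oil liver 3. With all 8 groups of the series in the fit it was 8 of 23. The defining duct keratins did not pass. Krt19 read 9.46, 8.09 and 8.27 in ANIT livers, against 7.95, 7.52 and 7.76 in corn oil livers (0.86 ± 0.33, adjusted p = 0.161), and Krt7 read 8.11, 7.49 and 8.65, against 7.23, 7.22 and 7.16 (0.88 ± 0.25, adjusted p = 0.0691). Both keratins were higher in every ANIT liver than in any corn oil liver, with ANIT liver 1 the high one for Krt19 and ANIT liver 3 for Krt7, and Krt7 was called without ANIT liver 2. Spp1, which encodes osteopontin, overlapped fully at -0.01 ± 0.11.

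Structural genes of epithelium and cytoskeleton moved more broadly. Of 32 tubulins, actins, annexins, simple keratins and S100 proteins 16 rose and 0 fell, with a median of 0.63 and 30 of 32 changes above 0, beside 3.84% of all genes rising. Krt8, a keratin of hepatocytes and ducts alike, read 13.32, 13.05 and 13.40 in ANIT livers, against 11.71, 11.58 and 11.79 in corn oil livers (1.56 ± 0.11, adjusted p = 0.000437), and its partner Krt18 rose by 1.19 ± 0.09. Tubb6, a beta tubulin, rose by 2.12 ± 0.16 (adjusted p = 0.000568) at the probe set that stands for it, while its other probe set stood at -0.16. Anxa2 likewise rose by 1.47 at 1 probe set and not at the other (-0.06). The junction genes went both ways, with 2 of 20 rising and 2 falling: F11r, a tight junction adhesion molecule, rose by 1.06 ± 0.10, while Cldn1 fell by 0.85 and the connexin Gjb1 by 0.62, the last not called without ANIT liver 2.

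Markers of blood-derived cells gave few calls, beside 3.84% of all genes rising and 3.38% falling. Of 16 listed neutrophil markers 9 were measured and 0 were called, with a median change of -0.05. At those shares 0 calls of 9 says little about neutrophils. The paper's histology describes neutrophils around the small ducts and in duct lumina of ANIT livers. S100a8 read 6.77, 6.04 and 5.52 in ANIT livers, against 5.38, 5.28 and 5.22 in corn oil livers (0.82 ± 0.27, adjusted p = 0.112), and S100a9 stood at 0.54 ± 0.15 (adjusted p = 0.0717). Both were above the corn oil range in every ANIT liver, and S100a8 was called without ANIT liver 3 and S100a9 without ANIT liver 2, whereas the receptors Csf3r and Cxcr2 overlapped at -0.05 and 0.03. Of 21 macrophage markers 3 rose and 1 fell. Lgals3 rose by 1.19 ± 0.13 and Gpnmb by 0.83 ± 0.10, Cd163 rose by 0.83 ± 0.20, a call kept only when ANIT liver 3 was the one left out, and Cd14 fell by 0.59, a call lost without corn oil liver 1 or 3 or ANIT liver 2 or 3. Clec4f, which marks resident Kupffer cells, stood at 0.07 and Cd68 at 0.19, both with overlapping groups. Among 19 lymphocyte markers 0 rose and 1 fell. The chemokine that rose most was Cxcl1, a neutrophil attractant, with 11.61, 11.43 and 11.07 in ANIT livers, against 8.90, 8.64 and 8.59 in corn oil livers (2.66 ± 0.15, adjusted p = 0.000163). Of 33 chemokines and cytokines 4 rose and 4 fell, and with 1 liver left out 2 or 3 rose, the fewest without corn oil liver 1. Cxcl16 (0.95) kept its call only when ANIT liver 3 was the liver left out, Ccl9 (0.62) lost it without corn oil liver 1 or ANIT liver 3, and both lost it with values capped at 14. Those that fell included Cxcl12 (-1.25) and Ccl5 (-1.02), while Ccl2 (0.65 ± 0.31) and Il1b (-0.31 ± 0.25) overlapped between groups.

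Genes of stellate cells, fibroblasts and matrix rose in part, beside 3.84% of all genes rising and 3.38% falling. Of 42 measured 10 rose and 2 fell, with a median of 0.16, and leaving out corn oil liver 1 or 2 left 6 that rose. Timp1, an inhibitor of matrix proteases, varied little, with 11.48, 11.41 and 11.49 in ANIT livers, against 9.05, 9.14 and 9.16 in corn oil livers (2.35 ± 0.07, adjusted p = 2.59e-05). Postn, a matrix protein of wound fibroblasts, was uneven, with 9.64, 7.75 and 8.89, against 6.77, 6.47 and 6.60 (2.14 ± 0.41, adjusted p = 0.0167), and it lost the call without any 1 of the corn oil livers. The smooth muscle genes of activated stellate cells rose, Tagln by 1.32 ± 0.12 and Acta2 by 0.93 ± 0.15, as did Plat, a plasminogen activator (1.93 ± 0.23), and Ccn2, a growth factor of connective tissue (1.71 ± 0.19). Col1a1 rose by 1.14 ± 0.23, a call lost without corn oil liver 1 or 2 or ANIT liver 1 or 2. Lrat, which stores vitamin A in quiescent stellate cells, read 8.18, 9.42 and 8.12 with ANIT, against 9.95, 9.78 and 9.97 with corn oil (-1.33 ± 0.32, adjusted p = 0.0386), and was not called without ANIT liver 1, without ANIT liver 3 or without any 1 of the corn oil livers. Endothelial markers gave 0 that rose and 2 that fell of 17.

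**Figure D3:**
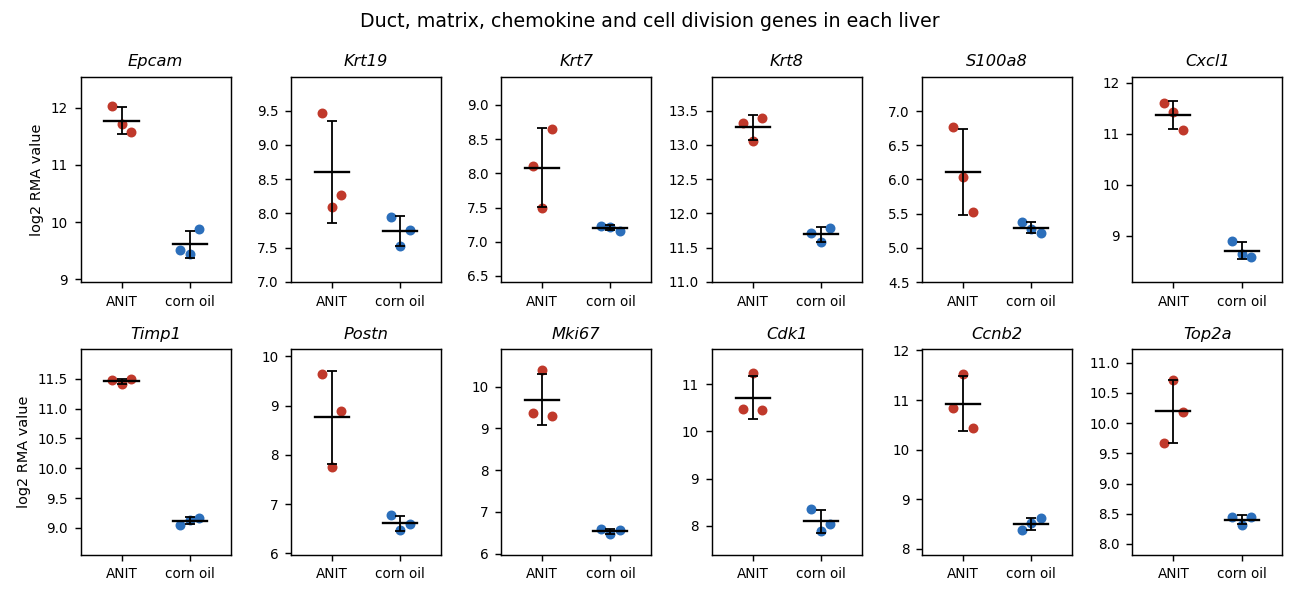
Log2 RMA values of 12 duct, matrix, chemokine and cell division genes, with a point for each liver, ANIT in red at the left and corn oil in blue at the right, a line at the mean and bars of 1 SD (n = 3 each). Epcam, Krt8, Cxcl1, Timp1 and the 4 division genes lie far apart between groups, while Krt19, Krt7 and S100a8 are scattered among ANIT livers.

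Cell division genes rose together. Of 58 measured mitosis genes 43 rose and 0 fell, with a median of 1.09 and 56 changes above 0, and between 33 and 44 rose when 1 liver was left out. Mki67, the proliferation antigen Ki-67, read 9.38, 10.39 and 9.29 in ANIT livers, against 6.58, 6.47 and 6.56 in corn oil livers (3.15 ± 0.26, 8.88-fold, adjusted p = 0.000753). Cdk1, the kinase that drives entry into mitosis, read 10.47, 11.24 and 10.45, against 8.36, 7.88 and 8.04 (2.63 ± 0.22, adjusted p = 0.000809). Ccna2, its cyclin A partner, read 7.88, 9.08 and 7.78, against 5.06, 5.12 and 5.00 (3.19 ± 0.31, adjusted p = 0.00127). In each of these ANIT liver 2 was the highest and the other 2 ANIT livers were close together, all well above corn oil. Of 33 DNA replication genes 16 rose and 0 fell, with a median of 0.55 and every change above 0. The helicase subunits Mcm6 (1.91 ± 0.23), Mcm4 (1.61 ± 0.10) and Mcm2 (0.88 ± 0.08) rose, and Pcna, the sliding clamp, differed by 0.50 ± 0.10, short of the required fold. Upstream, the G1 cyclin Ccnd1 rose by 0.81 ± 0.15, a call lost without corn oil liver 1 or corn oil liver 2, and Myc rose by 1.20 ± 0.23, a call lost without corn oil liver 3. Rb1 and Rbl1, retinoblastoma family brakes on the cycle, moved in opposite directions (-1.09 ± 0.17 and 1.13 ± 0.16). Mybl1, a transcription factor of the MYB family, read 11.06, 11.20 and 11.65 with ANIT, against 8.01, 7.97 and 8.16 with corn oil (3.26 ± 0.15, adjusted p = 8.52e-05).

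The promoters of the division genes are shown because the group moved together, and 52 of its 58 measured members had a promoter in the RefSeq table (assembly GRCr8). Searched on both strands in the 250 bases before the start, CCAAT, the core bound by the factor NF-Y, was found in 41 of the 52 (78.8%) against 36.4% of 11733 measured genes with a promoter, and TTTGAA, the cell cycle genes homology region, in 24 (46.2%) against 11.8%. Of the 38 of these that rose, 30 held CCAAT and 18 held TTTGAA, shares much like those of the 52. Among 30 DNA replication genes with a promoter CCAAT was found in 18 (60%) and TTTGAA in 3 (10%). Whether either motif goes with the rise was not tested. A match is a description of letters and not a shown binding site. The 200 bases before the start of 3 members are printed 5′ to 3′ on the gene's strand, with CCAAT or its reverse complement and TTTGAA or its reverse complement in capitals, and in Mki67 a match of each shares 1 base. They were picked after the search for holding both motifs. Cdk1 lies on the plus strand at chr20:19265093-19265292, Ccnb2, cyclin B2, on the minus strand at chr8:79981659-79981858 and Mki67 on the minus strand at chr1:199952594-199952793.
Cdk1: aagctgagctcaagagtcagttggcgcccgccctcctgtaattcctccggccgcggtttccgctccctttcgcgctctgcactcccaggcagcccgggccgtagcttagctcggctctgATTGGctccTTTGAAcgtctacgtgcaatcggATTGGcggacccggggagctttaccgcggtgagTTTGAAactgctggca
Ccnb2: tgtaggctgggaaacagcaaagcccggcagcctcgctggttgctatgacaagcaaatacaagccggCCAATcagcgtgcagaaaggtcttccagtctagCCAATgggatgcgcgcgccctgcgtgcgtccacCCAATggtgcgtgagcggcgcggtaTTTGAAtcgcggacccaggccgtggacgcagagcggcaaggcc
Mki67: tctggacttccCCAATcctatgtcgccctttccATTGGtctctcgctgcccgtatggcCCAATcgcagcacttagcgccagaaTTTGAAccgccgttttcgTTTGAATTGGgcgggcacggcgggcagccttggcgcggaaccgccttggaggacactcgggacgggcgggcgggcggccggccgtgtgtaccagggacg

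Cdk1 carries 2 matches of each motif in this stretch, and Ccnb2, which rose by 2.42 ± 0.24 in the same livers, carries 3 of CCAAT and 1 of TTTGAA.

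Stress genes rose in smaller numbers, beside 3.84% of all genes rising and 3.38% falling. Of 20 p53 targets and damage genes 5 rose and 0 fell, or 3 without ANIT liver 2. Phlda3 (0.68) lost its call without corn oil liver 2 or 3 or ANIT liver 1 or 2. Among the others that rose were Ccng1 (0.95 ± 0.16) and Gadd45a (0.94 ± 0.15), while Mdm2 overlapped at 0.21 ± 0.11 and Cdkn1a had a change of 0.57 ± 0.12, just under the fold threshold, with its other probe set called at 1.45 and this one called without corn oil liver 3 or ANIT liver 3. Of 24 immediate early genes 8 rose and 1 fell, between 4 and 7 rising when 1 liver was left out. Jun, an AP-1 subunit, rose by 1.48 ± 0.14 at the probe set that stands for it and was called at all 3 of its probe sets, and Klf6 rose by 1.41 ± 0.15, while Fos overlapped at -0.08 at the probe set that stands for it and was called at its other one, at 0.76.

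Genes of cholesterol synthesis rose along nearly the whole pathway. Of 10 enzymes from acetyl-CoA to lanosterol 9 rose and 0 fell, with a median of 1.66, and 9 were called whichever liver was left out. Acat2, which starts the pathway in the cytosol, read 11.84, 11.78 and 11.85 in ANIT livers, against 8.47, 8.92 and 9.27 in corn oil livers (2.94 ± 0.18, adjusted p = 0.00022). Mvd, mevalonate diphosphate decarboxylase, read 11.35, 11.33 and 11.37, against 9.32, 9.27 and 9.34 (2.03 ± 0.07, adjusted p = 2.59e-05). Sqle, squalene epoxidase and a rate-limiting step, read 12.31, 12.28 and 12.57, against 9.87, 9.95 and 10.09 (2.42 ± 0.10, adjusted p = 7.2e-05). ANIT livers were close to each other in all 3 enzymes and the gap to corn oil was many times the spread within either group. Idi1 (2.43 ± 0.19) and Fdps (1.81 ± 0.08), which make and join the isoprene units, rose alike. Of 9 post-lanosterol enzymes 8 rose and 0 fell, with a median of 0.86, led by Msmo1 (2.32 ± 0.13) and Cyp51 (1.80 ± 0.12). Among the sensors, Insig1, a target of SREBP that also holds it back, rose by 1.59 ± 0.12, Insig2, a second such anchor, fell by 1.34 (adjusted p = 0.000551), and Srebf2, the master factor of the pathway, rose by 0.65 ± 0.08 at 1 of its probe sets and stood at 0.02 at the other. Ces1d, a carboxylesterase that acts on lipids, fell by 1.94 (adjusted p = 0.00526).

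Promoters were searched in the same way for these enzymes, of which 7 of 10 and 9 of 9 had one. CCAAT was found in 6 of 7 up to lanosterol and in 7 of 9 after it, against 36.4% of measured genes. TCACNCCAC, a form of the sterol regulatory element, was found in 0 of these 16 windows and in 1.07% of measured genes. Idi1 on the minus strand at chr17:66547525-66547724 and Msmo1 on the plus strand at chr16:29746913-29747112 are printed as the 200 bases before the start, with CCAAT or its reverse complement in capitals.
Idi1: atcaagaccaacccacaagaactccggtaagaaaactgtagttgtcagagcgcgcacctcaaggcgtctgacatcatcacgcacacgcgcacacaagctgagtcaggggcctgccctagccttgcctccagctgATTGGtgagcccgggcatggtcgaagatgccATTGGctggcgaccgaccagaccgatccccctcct
Msmo1: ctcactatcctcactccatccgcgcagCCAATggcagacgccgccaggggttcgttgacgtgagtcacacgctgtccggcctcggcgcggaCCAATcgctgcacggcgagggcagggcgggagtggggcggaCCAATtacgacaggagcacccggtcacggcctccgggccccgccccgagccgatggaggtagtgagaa

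Genes of fatty acid synthesis rose as well, in 10 of 22 measured with 0 falling and a median of 0.67. Fasn, fatty acid synthase, read 12.70, 13.22 and 13.14 in ANIT livers, against 9.93, 10.27 and 10.57 in corn oil livers (2.76 ± 0.19, 6.79-fold, adjusted p = 0.000389). Elovl6, an elongase, rose by 2.07 ± 0.21, Acly, which makes cytosolic acetyl-CoA, by 1.46 ± 0.10 and Fads1, a desaturase, by 1.47 ± 0.12. Scd, the stearoyl-CoA desaturase, was the uneven one, at 11.95, 13.57 and 12.62 with ANIT, against 11.40, 11.48 and 11.68 with corn oil. All ANIT livers lay above the corn oil range, but the change of 1.20 ± 0.35 was not called (adjusted p = 0.0762), except without ANIT liver 1.

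Genes of fatty acid breakdown went the other way. Of 21 mitochondrial beta-oxidation genes 0 rose and 16 fell, beside 3.38% of all genes falling, with a median of -0.69 and 0 changes above 0. Leaving out corn oil liver 1 lowered the count to 10. Cpt1a, the gate of entry into mitochondria, read 13.14, 13 and 12.86 in ANIT livers, against 14.15, 13.74 and 13.82 in corn oil livers (-0.90 ± 0.13, adjusted p = 0.005), and Hadh, of the third step of the cycle, fell by 1.19 (adjusted p = 0.00127). Of 22 peroxisomal and PPAR alpha target genes 0 rose and 13 fell, with a median of -0.81. Crot, which exports chain-shortened acyl groups from peroxisomes, read 11.88, 11.64 and 12.16 with ANIT, against 13.74, 13.55 and 13.44 with corn oil (-1.68 ± 0.14, adjusted p = 0.000768), with 2 of its 3 probe sets called. Ehhadh read 12.35, 12.55 and 12.04, against 14.16, 13.72 and 13.71 (-1.55 ± 0.17, adjusted p = 0.0018). In both genes every ANIT liver lay well below every corn oil liver. Fgf21, a fasting hormone that PPAR alpha induces, read 9.36, 9.63 and 9.36 with ANIT, against 11.37, 11.35 and 10.02 with corn oil (-1.47 ± 0.34, adjusted p = 0.0333), with corn oil liver 3 near the ANIT livers. Its call was kept only when corn oil liver 3 was left out, with changes of -1.91 to -1.24 over the omissions. Of 6 ketone body genes 3 fell, with Bdh1 at -1.21 ± 0.10. Apolipoproteins gave 4 that fell of 17, led by Apoa4 (-1.58 ± 0.17).

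Xenobiotic genes showed selective rises. Of 8 AhR targets 3 rose and 1 fell. Cyp1a1, the prototype target, read 13.03, 13.33 and 12.97 in ANIT livers, against 9.38, 9.31 and 9.04 in corn oil livers (3.87 ± 0.13, 14.6-fold, adjusted p = 2.59e-05). Cyp1b1 rose by 0.88 ± 0.10, while Cyp1a2 differed by 0.42 ± 0.10, short of the required fold. Of 27 NRF2 targets 8 rose and 1 fell. Gpx2, a glutathione peroxidase, read 11.91, 12.15 and 10.70, against 8.49, 7.97 and 8.48 (3.27 ± 0.35, adjusted p = 0.00183), with ANIT liver 3 the low one of its group. Nqo1, a quinone reductase, rose by 0.82 ± 0.14, a call lost without corn oil liver 2 or corn oil liver 3, and Hmox1, heme oxygenase, rose by 0.90 ± 0.12. The subunits of glutamate-cysteine ligase, which start glutathione synthesis, went the other way, with Gclc falling by 0.72 (adjusted p = 0.0033) and Gclm at -0.57 ± 0.10, just under the fold threshold and called without corn oil liver 2, corn oil liver 3 or ANIT liver 1. Glutathione S-transferases moved in both directions, 3 of 20 rising and 3 falling. Gstm3 read 13, 12.66 and 12.58 with ANIT, against 9.79, 9.57 and 9.27 with corn oil (3.20 ± 0.16, adjusted p = 0.000102). Gsta3 read 12.11, 11.94 and 12.07, against 10.03, 8.67 and 10.29 (2.38 ± 0.37, adjusted p = 0.00767), with corn oil liver 2 the low one. Gstp3 fell, at 9.45, 10.69 and 10.35 with ANIT, against 12.69, 13.27 and 13.28 with corn oil (-2.92 ± 0.31, adjusted p = 0.00177). Transferases of the same family are close in sequence, and cross-hybridisation among their probes was not tested. Of 29 P450 genes of families 2 and 3 2 rose and 13 fell, with a median of -0.59. Of 15 sulfotransferases 0 rose and 4 fell, and among 10 genes of glucuronidation Ugt2b1 rose by 1.55 ± 0.18 while Ugt2b fell.

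Genes that are higher in male than in female rat liver form a list that shares members with that of the P450 enzymes. Like every list here it was drawn up with earlier results known, in its case the fall of some members. Its count and median thus describe the chosen genes and support nothing about the class. Of 16 measured 0 rose and 14 fell, with a median of -1.50 and 0 changes above 0, and between 10 and 14 fell when 1 liver was left out. Cyp2c11, the main male P450, read 11.42, 11.71 and 11.57 in ANIT livers, against 14.21, 13.87 and 13.97 in corn oil livers (-2.45 ± 0.12, 5.47-fold, adjusted p = 9.8e-05). Obp3, of the family that carries male urinary protein, was uneven: it read 6.54, 10.48 and 6.08 with ANIT, against 13.13, 12.34 and 12.52 with corn oil (-4.96 ± 1.02, adjusted p = 0.0226). ANIT liver 2 lay closer to the corn oil livers than to the other 2 ANIT livers, and the gene was not called without ANIT liver 1 or without any 1 of the corn oil livers, with changes of -6.35 to -4.15. Of 13 female-predominant genes 3 rose and 3 fell. Cyp2c12, the main female P450, read 14.31, 14.34 and 14.22, against 13.31, 12.85 and 13.32 (1.13 ± 0.13, adjusted p = 0.00253), or 0.84 with values capped at 14. All these rats were male, and cross-hybridisation of the Cyp2c12 probe set with transcripts of related P450 genes was not tested. Its signal may thus not be that of Cyp2c12 alone. Cux2, a female-specific factor in mouse liver, rose by 1.05 ± 0.26 at 1 of its 2 probe sets and had a change of 1.39 without a call at the other, and the call was lost in 5 of the 6 omissions, all but that of ANIT liver 3. Of 18 genes of the growth hormone and IGF axis 0 rose and 3 fell: Socs2, a feedback inhibitor, by 1.44 (adjusted p = 0.00805), Igfbp3 by 1.07 and Igfals by 0.63. Igfbp3 lost the call without any 1 of the corn oil livers, and Igfals without corn oil liver 1, corn oil liver 2 or ANIT liver 1. The receptor gene Ghr overlapped at -0.43 ± 0.15, and Igf1 read 13.52, 13.56 and 13.62 with ANIT, against 14.12, 14.08 and 14.18 with corn oil, a change of -0.56 ± 0.07 that was just under the fold threshold and was called without ANIT liver 3, or -0.43 with values capped at 14.

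Of 45 genes of amino acid breakdown 1 rose and 13 fell. Kynu, of tryptophan breakdown, fell by 1.43 (adjusted p = 0.000708) and Gnmt, which disposes of methyl groups, by 1.25 (adjusted p = 0.000927), whereas Tat, the tyrosine transaminase, rose by 0.70 ± 0.14, a call lost without corn oil liver 1 or 2 or ANIT liver 1 or 2. The urea cycle enzymes Cps1, Ass1 and Otc overlapped between groups, at -0.01, -0.05 and -0.44. Pck1, of glucose output, had a change of -0.22 ± 0.09 without a call, Slc2a2, the glucose carrier GLUT2, rose by 0.81 ± 0.09 (adjusted p = 0.00178), and Pgd and Tkt of the pentose phosphate pathway rose by 1.09 ± 0.11 and 0.89 ± 0.14. Zone markers did not go 1 way. Of 21 pericentral genes 3 rose and 1 fell, and of 20 periportal genes 1 rose and 5 fell. With 1 liver left out 0 to 3 pericentral genes fell, the most without ANIT liver 2 and none without corn oil liver 3 or ANIT liver 1, and 2 to 6 periportal genes fell, the fewest without corn oil liver 2 or 3 and 3 without corn oil liver 1. The difference between the zones was not tested. Glul, the pericentral glutamine synthetase, overlapped at 0.18 ± 0.13.

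The secreted proteins of the acute phase were mixed. Of 26 listed and measured 3 rose and 3 fell. Lbp, which binds bacterial lipopolysaccharide, read 13.56, 13.39 and 13.71 in ANIT livers, against 12.31, 12.33 and 12.53 in corn oil livers (1.16 ± 0.11, adjusted p = 0.00107), and Stat3, the factor that carries the interleukin 6 signal, rose by 0.74 ± 0.07. A2m, the large acute phase protease inhibitor of rats, read 11.42, 9.91 and 12.76 with ANIT, against 9.83, 9.41 and 8.91 with corn oil. Each ANIT liver lay above every corn oil liver, with liver 3 the highest, and the change of 1.98 ± 0.63 was not called (adjusted p = 0.0973), except without ANIT liver 2. The serpins Serpina3l and Serpina3c fell: Serpina3l read 12.08, 12.37 and 12.45, against 15.70, 14.35 and 15.67 (-2.94 ± 0.34, adjusted p = 0.00233), or -1.70 with values capped at 14, and Serpina3c changed by -2.33 ± 0.36, or -1.25 with the cap. Both stayed called. Hamp, which encodes hepcidin, overlapped at 0.27 ± 0.22. Of 30 complement and coagulation genes 0 rose and 1 fell. Among blood cell transcripts, Hbb, a beta globin, read 12.52, 12.37 and 12.63 with ANIT, against 13.63, 13.90 and 14.05 with corn oil (-1.35 ± 0.12, adjusted p = 0.00105), and Alas2, the erythroid heme enzyme, fell by 1.40 (adjusted p = 0.0103), a call lost without corn oil liver 3.

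Some groups had few calls or none, beside 3.84% of all genes rising and 3.38% falling. In a list of 19 genes a count of 0 or 1 lies near those shares. Of 45 genes of the respiratory chain and ATP synthase, 31 proteasome subunits and 19 cytoplasmic aminoacyl-tRNA synthetases 0 were called in each, and their medians were -0.04, -0.12 and 0.03. Without ANIT liver 1, 3 proteasome subunits were called lower. Cytoplasmic ribosomal proteins gave 1 that rose of 38, with 37 changes above 0 and a median of 0.28, against -0.02 over all genes. Quantile normalization called 5 of them higher, and leaving out corn oil liver 1 or ANIT liver 2 gave 2. Of 19 ER chaperones 0 rose and 1 fell, and Hspa5 overlapped at -0.03 ± 0.12. Of 27 interferon and antigen processing genes 2 rose, the proteasome subunits Psmb9 (1.07 ± 0.12) and Psmb10 (0.92 ± 0.18), the last not called without any 1 of the corn oil livers, whereas Gbp2 overlapped at -0.20 ± 0.36. Pancreatic acinar markers gave 0 calls of 11, but a call between groups would miss stray tissue in a single liver or in both groups alike. The mean level of that list was 7.81, 7.81 and 7.85 in ANIT livers, against 7.92, 7.80 and 7.85 in corn oil livers.

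**Figure D4:**
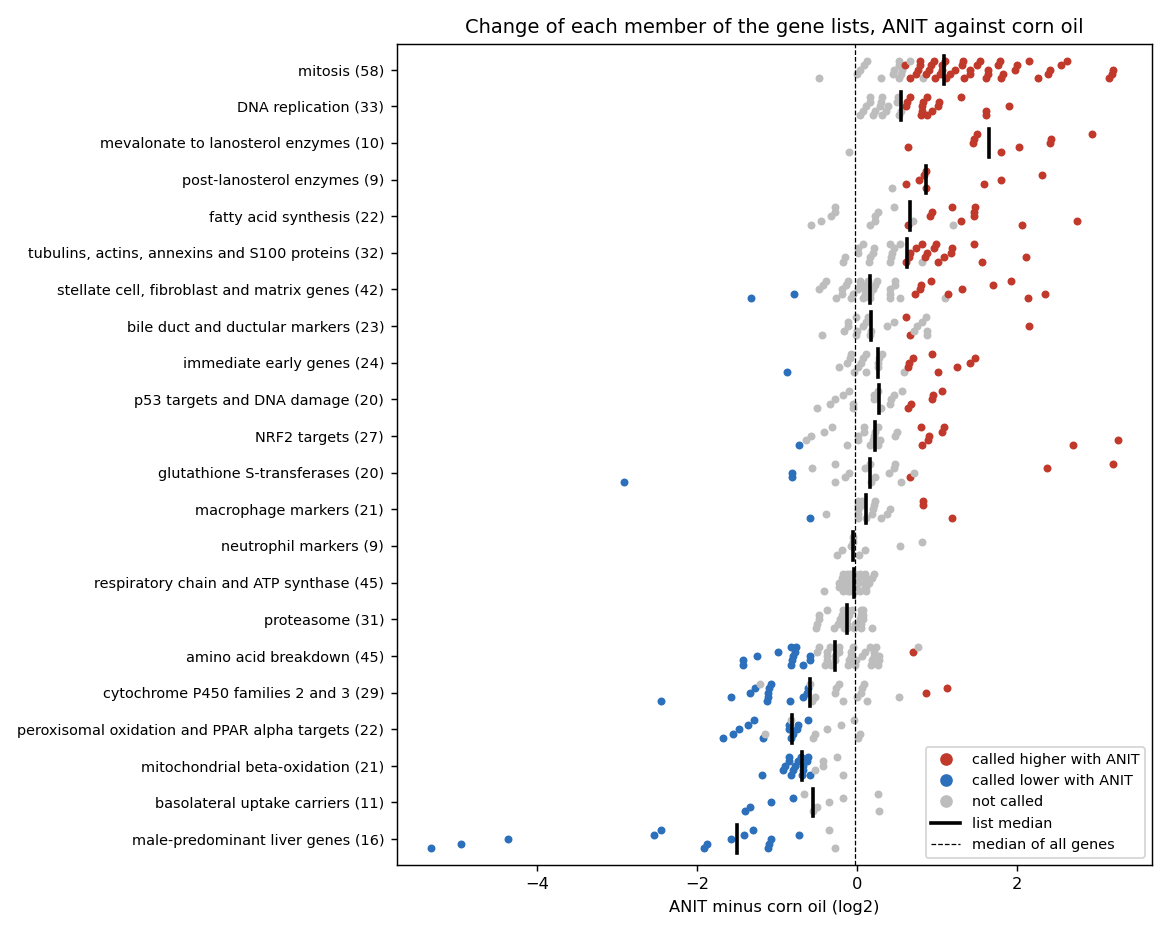
Change of each measured member of 22 gene lists (log2, ANIT minus corn oil, horizontal axis), with the number measured after each name, red for members called higher with ANIT, blue for lower and grey for not called. Black ticks are list medians, from 1.66 for the enzymes up to lanosterol to -1.50 for male-predominant genes, and the dashed line is the median of all genes (-0.02). All lists were drawn up with earlier results of these data known, and the male-predominant list with the fall of some members known.

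Values within the ANIT group were uneven in some genes. The 5 called genes with the largest SD among ANIT livers were Obp3 (2.42), Lcn2 (1.19), Nrep (1), Ifgga2l1 (0.98) and Postn (0.96), against SDs of 0.07 to 0.42 for the same genes in corn oil livers. Nrep read 10.91, 9.43 and 9.01 with ANIT, against 11.81, 12.33 and 12.63 with corn oil (-2.48 ± 0.45, adjusted p = 0.0145), and leaving out corn oil liver 2 or corn oil liver 3 ended its call. Ifgga2l1 (-1.76) lost its call without ANIT liver 2 or any 1 of the corn oil livers. The liver that stood out was not the same 1 in each gene: ANIT liver 2 for Obp3 and several division genes, and ANIT liver 1 for Nrep and Krt19. For Lcn2 it was ANIT liver 3, at 15.61, but that array was not among those on which bright probe sets read low while ANIT arrays 1 and 2 were, and the part of this in the spread of Lcn2 was not tested. At the other end, the 5 with the smallest SD, 0.01 or 0.02, were Paqr7, Cnppd1, Sh3bgrl1, Etfdh and Mvd.

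Methylenedianiline (100 mg/kg, 3 rats, against 3 rats given 35% ethanol, from another in-life study) is the other bile duct toxicant of the series, and each compound has its own vehicle, so the difference between their effects was tested over these 12 arrays. Of 14217 genes 101 had a larger or more positive change with ANIT (0.71%) and 137 a smaller or more negative one (0.964%). The study, the vehicle and the compound cannot be told apart in this comparison. The sterol enzymes differed as a group, with 8 of 10 up to lanosterol and 7 of 9 after it called above 0 and 0 below, and median differences of 1.51 and 1.23. For Sqle the ANIT change of 2.42 ± 0.10 stood beside 0.41 ± 0.21 with methylenedianiline (difference 2.01 ± 0.26, adjusted p = 0.0041). The vehicles themselves were unlike: Idi1 read 12.26, 12.13 and 12.24 with ANIT and 11.59, 11.54 and 11.44 with methylenedianiline, against 9.37, 9.76 and 10.21 in corn oil livers and 11.35, 12.12 and 11.09 in ethanol livers.

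Bile acid synthesis differed at Cyp8b1, which changed by -1.08 ± 0.20 with ANIT and by -3.49 ± 0.25 with methylenedianiline (difference 2.41 ± 0.36, adjusted p = 0.00835). For Cyp7a1 the changes were 2.85 ± 0.49 and 0.72 ± 0.59, and the difference of 2.13 ± 0.87 was not called (adjusted p = 0.352). Abcc3 changed by 2.70 ± 0.35 with ANIT and 2.69 ± 0.12 with methylenedianiline, with a difference of 0.02 ± 0.41, and Cyp1a1 by 3.87 ± 0.13 and 3.54 ± 0.30, with a difference of 0.33 ± 0.36. Errors of that size leave room for differences of either sign. Epcam rose by 2.16 ± 0.16 with ANIT, against 1.10 ± 0.14 with methylenedianiline (difference 1.06 ± 0.23, adjusted p = 0.0444), a call that of the 12 omissions only those of corn oil liver 3, ANIT liver 3 and methylenedianiline liver 2 kept, and that was lost with values capped at 14. Treated livers overlapped for Epcam, at 12.04, 11.72 and 11.57 with ANIT and 11.70, 11.76 and 11.26 with methylenedianiline. The vehicles did not, at 9.51, 9.44 and 9.88 in corn oil livers and 10.56, 10.49 and 10.36 in ethanol livers. Differences in macrophage markers went the other way, with 0 of 21 called above 0 and 5 below and a median difference of -0.67. Gpnmb changed by 0.83 ± 0.10 with ANIT and by 2.04 ± 0.18 with methylenedianiline (difference -1.21 ± 0.23, adjusted p = 0.0256), a call lost without any 1 of the corn oil livers, ANIT liver 3, ethanol liver 2 or 3 or methylenedianiline liver 3, and with all 8 groups in the fit. Ugt2b fell with ANIT (-5.21 ± 0.52) and stood at -0.33 ± 0.12 with methylenedianiline, the most negative difference (-4.88 ± 0.59, adjusted p = 0.00317).

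**Figure D5:**
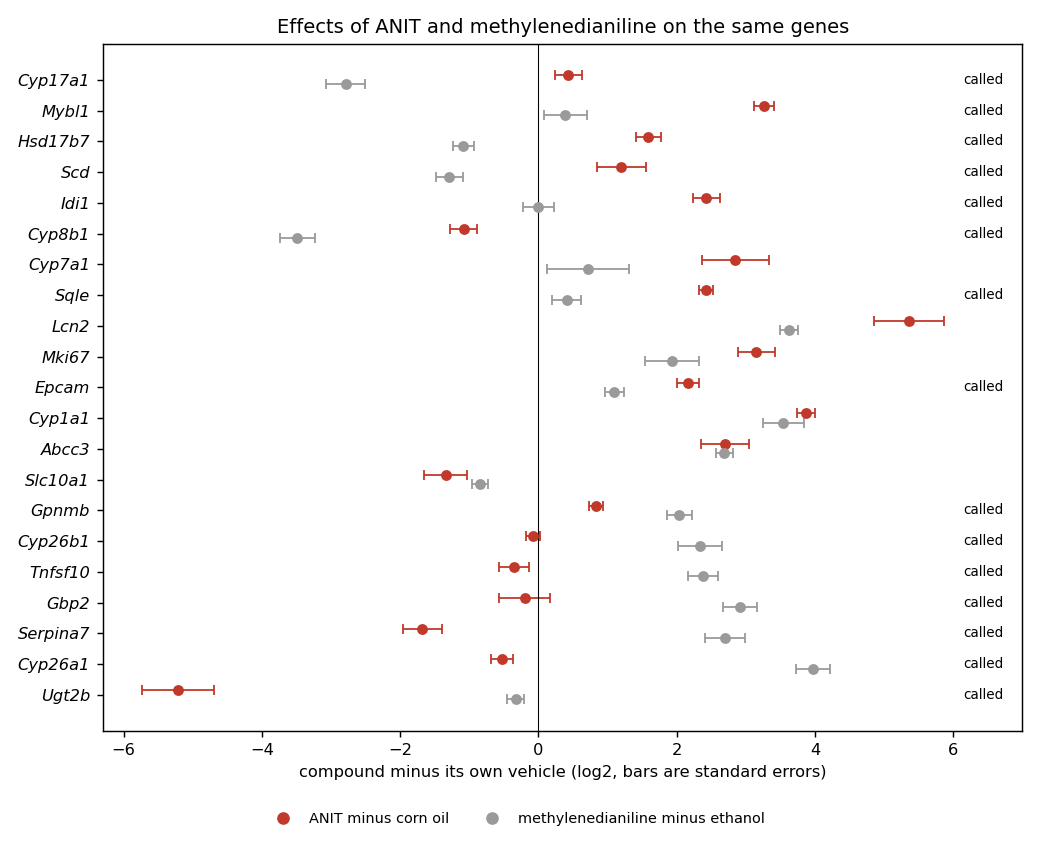
Changes of 21 genes with ANIT against corn oil (red) and with methylenedianiline against ethanol (grey), in log2 units on the horizontal axis with bars of 1 standard error. Genes are ordered by the difference, from Cyp17a1 (3.23) to Ugt2b (-4.88), and those marked as called passed the test of the difference.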

How the data were processed

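The authors scanned 1 Affymetrix array per rat liver and deposited log2 values summarised by robust multichip average (RMA) in Array Studio. These deposited log2 values were used without further scaling, and arrays carry no read depth, so precision rests on the 3 livers a group. The livers of a group came from separate rats by the animal numbers of the labels. Effects were fitted with limma 3.58.1 in R 4.3.3 (lmFit and eBayes) on the 6 arrays, or on 12 for the difference from methylenedianiline, with Benjamini-Hochberg adjustment over 31042 probe sets. An exact permutation test of 3 against 3 cannot go below p = 0.1. Control probe sets were left out. Where a gene had several probe sets, the brightest on average over all 23 samples was used, and gene names came from the platform annotation. Named genes were the 12 largest rises and 12 largest falls whose groups did not overlap, core genes of each list, up to 6 called members per list and direction, the 6 largest differences from methylenedianiline each way with 10 fixed genes, and the 5 called genes with the largest and the smallest SD among ANIT livers. Members and lists were chosen with earlier results of these data known. Alternatives were quantile normalization, median centring, leaving out the dimmest 25% of probe sets, trend and robust moderation, all 8 groups in 1 fit, the methods' t-test, each liver left out, the mean of a gene's probe sets and, added after seeing the data, values above 14 set to 14. Promoters came from RefSeq (GRCr8). The code was tested on simulated data.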

Additional observations from a re-analysis of the deposited data

Results flagged for a closer look

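The results below stood out because the test of the difference itself, the ANIT effect minus the methylenedianiline effect in limma over 12 arrays, passed the threshold. Compound, vehicle and study change together in all of them. More positive with ANIT were Cyp17a1, a steroid hydroxylase, with a difference of 3.23 (ANIT change 0.43, methylenedianiline change -2.79), Mybl1 with 2.86 (3.26 and 0.39), Hsd17b7, an enzyme of sterol synthesis, with 2.68 (1.59 and -1.09), and Idi1 with 2.42 (2.43 and 0.00). Scd had a difference of 2.48 (1.20 and -1.29), which was not called without corn oil liver 1, corn oil liver 2 or ethanol liver 3. Cyp8b1 had one of 2.41 (-1.08 and -3.49), Sqle of 2.01 (2.42 and 0.41) and Epcam of 1.06 (2.16 and 1.10). The Epcam call was lost in most omissions of 1 liver, all but those of corn oil liver 3, ANIT liver 3 and methylenedianiline liver 2, and with values above 14 set to 14. In Hsd17b7, Idi1, Scd, Sqle and Epcam every ethanol liver lay above every corn oil liver. In Cyp17a1, Mybl1 and Cyp8b1 the vehicles overlapped. Scd read 11.40, 11.48 and 11.68 in corn oil livers and 13.72, 13.06 and 13.41 in ethanol livers. Its treated livers overlapped, at 11.95, 13.57 and 12.62 with ANIT and 12.34, 12.23 and 11.76 with methylenedianiline.

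More negative with ANIT were Ugt2b with a difference of -4.88 (-5.21 and -0.33) and Cyp26a1, which clears retinoic acid, with -4.50 (-0.53 and 3.97). Cyp26a1 read 7.37, 7.81 and 7.27 in ANIT livers and 11.20, 12.16 and 11.99 in methylenedianiline livers, against 7.80, 8.13 and 8.13 in corn oil livers and 7.87, 8.07 and 7.51 in ethanol livers. Its relative Cyp26b1 had a difference of -2.42 (-0.08 and 2.34). Serpina7, the thyroxine-binding globulin, had one of -4.38 (-1.68 and 2.70), Gbp2, an interferon-induced guanylate-binding protein, of -3.11 (-0.20 and 2.92), and Tnfsf10, the death ligand TRAIL, of -2.73 (-0.35 and 2.38). Gpnmb, a macrophage glycoprotein, had one of -1.21 (0.83 and 2.04), a call lost without any 1 of the corn oil livers, ANIT liver 3, ethanol liver 2 or 3 or methylenedianiline liver 3, and with all 8 groups in the fit. Lcn2 was not called (1.74, adjusted p = 0.211) but was called without ANIT liver 3 and with values above 14 set to 14. Vehicles differed here too. Serpina7 read 10.90, 10.73 and 10.72 in corn oil livers and 9.44, 8.93 and 8.75 in ethanol livers. With treatment it read 9.81, 8.51 and 8.97 (ANIT) and 12.09, 12.06 and 11.07 (methylenedianiline). Every corn oil liver also lay above every ethanol liver in Tnfsf10 and Gpnmb, and below in Ugt2b and Lcn2. In Cyp26a1, Gbp2 and Cyp26b1 the vehicles overlapped.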

How the results depend on the processing

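None of the 317 named genes changed direction past the threshold under the alternatives run, and 44 of the 230 called ones were called in every one of them. Counts moved more. With 1 liver left out, 559 to 1015 probe sets were higher and 582 to 917 lower with ANIT (816 and 855 with all livers), 387 to 668 genes were higher and 324 to 525 lower (546 and 480), and 86 to 181 probe sets were above and 64 to 219 below 0 in the difference from methylenedianiline (171 and 190). The fewest differences on either side were called without corn oil liver 1, and leaving out corn oil liver 2 or 3 or ethanol liver 2 or 3 also lowered a count by more than 1.5 times. The methods' t-test at their unadjusted threshold of 0.01 called 563 probe sets higher and 586 lower, and 387 genes higher and 331 lower. With adjusted p it called 127 probe sets higher and 95 lower, and 91 genes higher and 67 lower, with 1 of the 58 mitosis genes called higher, against 43 in limma. In the lists of bile acid synthesis, canalicular export pumps and basolateral efflux pumps it called 0 members. The cause of these losses was not tested. With all 8 groups in the fit 270 probe sets were above 0 in the difference. Quantile normalization shared 944 of the 1026 called genes and split its own into 595 higher and 408 lower. Capping at 14 left 976 genes. Of 120 list counts, 30 stayed within 1.5 times under every alternative. No paired analysis was possible because the replicates are different rats numbered in sample order. Array number limits precision, and values above 14 have no reliable size on 3 of the 6 arrays.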
